A study of Mus musculus with 2 samples.

Results

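The genes described here encode the machinery that copies DNA in S phase. A list of 49 genes was taken as given, and every probe set whose platform annotation names exactly 1 of these genes, under its current or former symbol, was included. By this rule 48 of the 49 genes were measured, by 108 probe sets, out of 18193 genes in all. Chaf1a had no probe set with this single symbol and is not analysed here. The RNA came from mouse bone marrow cells of wild-type C57BL6J mice, labelled LSK Flt3- cells. These are lineage-negative cells with Sca-1, high c-Kit and no Flt3 receptor on their surface, a fraction rich in blood stem cells. There was 1 Affymetrix array of control cells transduced with GFP, and 1 array of cells labelled as transduced with Satb1, the gene of a chromatin organiser that binds AT-rich DNA. Both groups share the strain, the wild-type genotype, the cell fraction and the fact of having been transduced. The sources used here do not give the vector, the time after transduction, the age of the mice or the number of animals or cultures per array.

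With 1 array per group, no standard error, p-value or replicate check can be given for any difference. Values are MAS5 intensities, the linear probe set signals of the Affymetrix software, and a difference is the log2 intensity on the Satb1-labelled array minus that on the GFP-labelled array. The probe set brightest over both arrays (highest mean log2 value) stands for its gene. Intensities under 61.7, the median of all values, were raised to this floor before a difference was taken. The intensity of a probe set also depends on its own sequence, so intensities of different genes do not order their transcripts, and only the 2 arrays are compared, gene by gene.

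A replication origin is first licensed: the origin recognition complex, ORC, marks the site, and Cdc6 and Cdt1 help it load the ring-shaped MCM2-7 helicase. In S phase, Cdc45 and the GINS complex join the ring and the helicase starts to unwind DNA. Polymerase alpha with primase lays down primers, polymerases delta and epsilon extend them on the sliding clamp PCNA, and nucleases and a ligase join the pieces of the lagging strand. Most adult blood stem cells are quiescent, whereas progenitors and cultured, transduced cells cycle, and E2F transcription factors switch many of these genes on at the entry into S phase.

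The arrays were checked against their labels and the sorted fraction. Satb1 itself was lower on the Satb1-labelled array, at 1116 and 909 by its brightest probe set, a difference of -0.30. Further Satb1 probe sets read 964 and 908, 288 and 165, and 81.4 and 30.5, differences of -0.09, -0.81 and -0.40. The -0.40 was taken against the floor, and the dimmest probe set, at 27.8 and 18.5, was too dim to give a difference. Why Satb1 read lower was not tested, and all directions rest on the labels. The list for the fraction held 6 measured genes, all above the floor. Among them, Flt3 (1390 and 1334) encodes the receptor whose absence defines the fraction, so its transcript does not mark it. Ly6a, the gene of Sca-1, had no probe set with this single symbol. Of 5 lineage antigen genes 2 were above the floor, while Cd3e, Cd4 and Ms4a1 were below it. The erythroid genes Hba-a1 (6.6 and 3.8) and Alas2 (1.6 and 1.3) were near 0, and Klf1 read 87.1 and 138. Markers of the fraction itself and of other cells differed between the arrays. Of the 6 genes of the fraction list, Flt3 included, 4 were lower on the Satb1-labelled array and 2 higher, with sums of 17072 and 16435. The stem cell transcription factor gene Hlf was the furthest of them, at 673 and 382, a difference of -0.82, and Mecom read 940 and 815. Of 9 granulocyte genes, 8 were higher and 5 of these 2-fold or more, among them Camp at 187 and 834 and S100a8 at 3094 and 10109. Their summed intensity was 25558 on the GFP-labelled array and 36667 on the Satb1-labelled array, of which Mpo, the lower gene, made up 18391 and 16452. All 4 basophil and mast cell genes were lower, 3 of them 2-fold or more, with Fcer1a at 397 and 65.4 and sums of 13696 and 7421. All 4 megakaryocyte genes were higher, with sums of 25356 and 29489. Their part in the differences described below was not tested.

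Transcripts of the replication machinery were bright on both arrays, and they differed little between them. All 48 measured genes lay above the floor on both arrays, from 412 to 18591 on the GFP-labelled array and from 279 to 18656 on the Satb1-labelled array. Of the 48, 42 exceeded 1000 on both. None differed by 2-fold, and none by 1.5-fold. For the shares of all genes, here and below, a gene above the floor on at least 1 array counted as above it. Among the 11048 such genes, 1.13% differed by 2-fold or more and 5.66% by 1.5-fold or more. Against such low shares a count of 0 among 48 sets these genes apart in no way. The largest differences were those of Tyms, 1.48-fold lower on the Satb1-labelled array, Pold1, 1.29-fold lower, and Tk1, 1.23-fold higher.

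**Figure D1:**
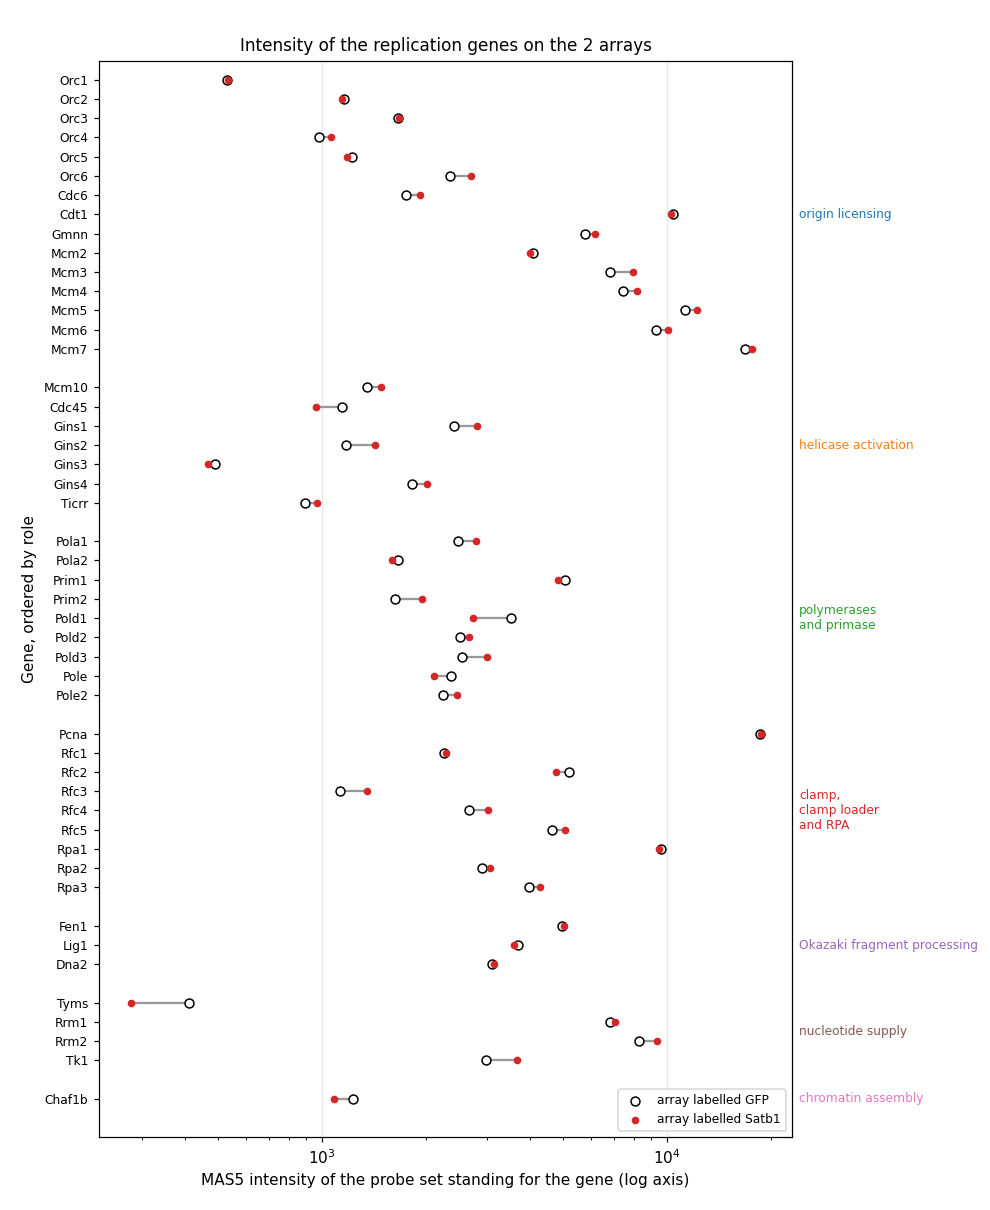
MAS5 intensity (log axis) of the 48 measured replication genes on the GFP-labelled array (open circles) and the Satb1-labelled array (red points), 1 array each, with a grey line joining the pair; genes are ordered by role. Most pairs nearly coincide, Pcna at 18591 and 18656 among them, and the widest gap is that of Tyms, at 412 and 279.

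Small differences leaned towards the Satb1-labelled array. Of the 48 genes, 33 (68.8%) were higher there by some amount and 15 lower, against 45.2% higher and 54.8% lower among all genes above the floor. The median log2 difference was 0.08, against -0.02 for all genes above the floor. Brightness goes with this lean, by a limit chosen after the values were seen: among the 4426 genes over 1000 on both arrays, 54.9% were higher, with a median of 0.02, and among the 42 replication genes over 1000, 71.4% were higher, with a median of 0.09. The count moved with the scaling of the arrays. It was 28 higher and 20 lower after quantile normalization, where 50.3% of all genes above the floor were higher. It was 39 higher and 9 lower after each array was centred on its median, where 54.8% of all genes were higher. Centring raised the difference of each replication gene by 0.05, so it could turn a lower gene higher but no higher gene lower. Under all 3 scalings 28 genes were higher, the same ones as after quantile normalization, and 9 lower, the same ones as after centring. The share of all genes that kept their direction under all 3 was not taken. In bulk RNA, a larger share of cycling cells and more transcript per cell cannot be told apart. At a 1.2-fold threshold, added after the values were seen, 3 genes were higher (Tk1, Gins2 and Rfc3) and 2 lower (Tyms and Pold1). That is 6.25% and 4.17% of the 48, against 9.55% and 17.0% of all genes above the floor. Among genes over 1000 on both arrays, 4.95% of all were higher and 5.94% lower, against 7.14% and 2.38% of the 42 replication genes. Both lower calls rest on the probe set: Tyms was at -0.04 averaged over its probe sets, and Pold1 at 0.07 without probe sets of the suffixes _s_at and _x_at, which can match more than one transcript. The higher calls lay close to the threshold. Rfc3 was at 0.21 averaged over its probe sets, Gins2 at 0.24 without those suffixes and Tk1 at 0.26 after quantile normalization. Each was then still higher but under 1.2-fold.

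Probe sets of the same gene give the only technical spread that these arrays allow. Of the 108 probe sets, 94 lay above the floor on both arrays, 63 of them higher and 31 lower on the Satb1-labelled array. For 31 genes 2 or more probe sets lay above the floor, and for 17 of these (54.8%) they pointed both ways, close to the 52.1% of all 4840 genes with several such probe sets. In 11 of the 31 all were higher and in 3 all were lower. For these counts, and for the 63 and 31 probe sets, the matching shares over the whole array were not taken. They are therefore no result about the replication genes. The SD of the log2 difference within genes was 0.26 over these 31 genes, and 0.13 where only probe sets over 1000 were taken (21 genes). Of the 48 differences, 5 (10.4%) were larger than 0.26 in size, those of Tyms, Pold1, Tk1, Gins2 and Rfc3, against 26.5% of all genes above the floor. These shares do not compare like with like, since 42 of the 48 exceeded 1000 and brighter genes differed less between the arrays. Measured against the SD of the bright probe sets, 0.13, 20 of the 48 differences were larger, 15 of them higher and 5 lower. The 5 include Tyms and Cdc45, which did not exceed 1000 on both arrays. The share of all genes beyond 0.13 was not taken, so these counts do not set the replication genes apart. Neither SD holds error that all probe sets of an array share.

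**Figure D2:**
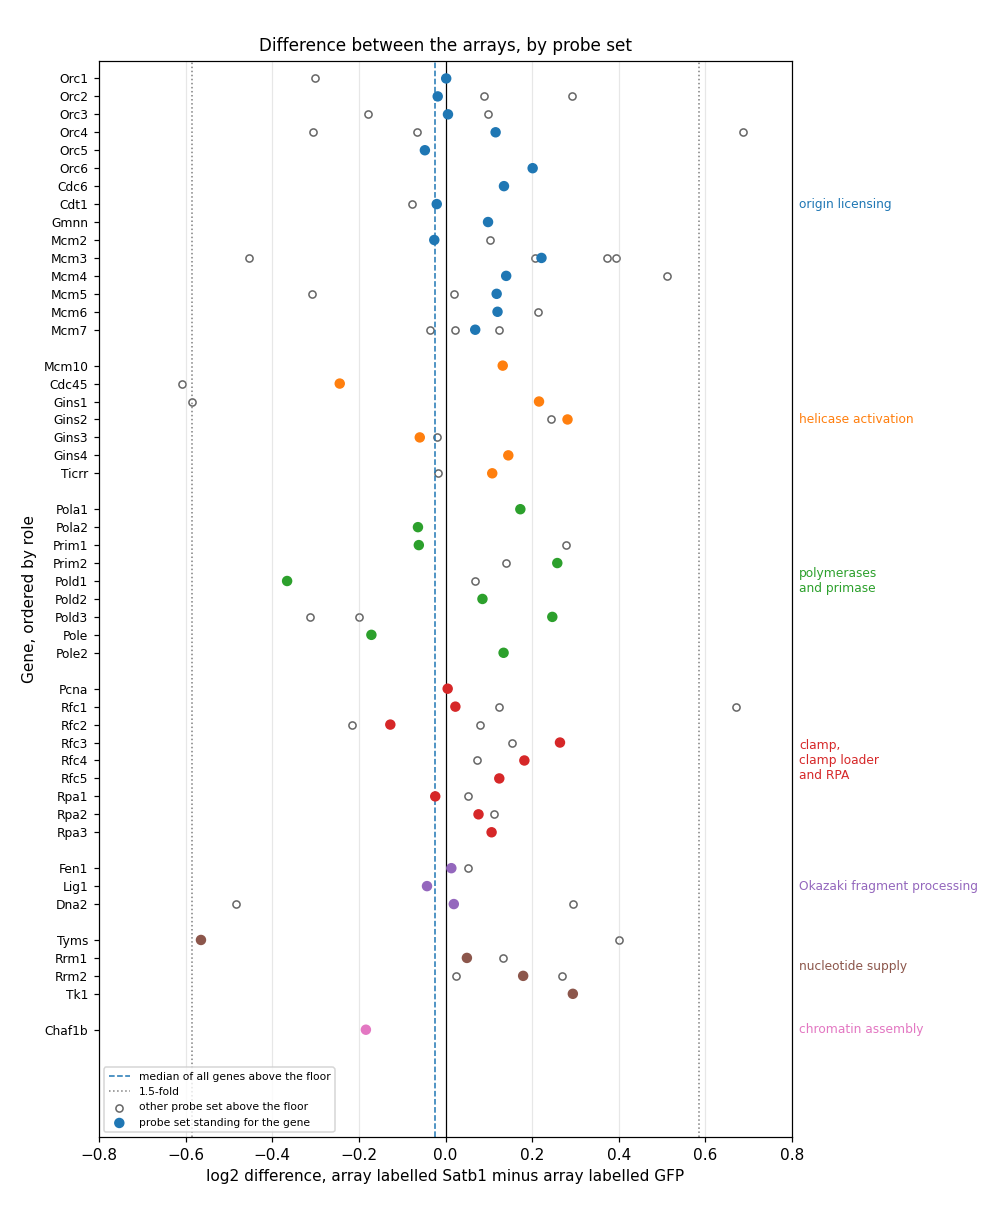
The log2 difference between the 2 arrays for each replication gene, for the probe set standing for the gene (coloured by role) and for its other probe sets above the floor (open circles); dotted lines mark 1.5-fold and the dashed line the median of all genes above the floor, -0.02. The coloured points lie between -0.56 (Tyms) and 0.29 (Tk1), and the open circles of Orc4, Mcm3 and Dna2 spread on both sides of 0.

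The promoters of these genes were read for the motif that E2F proteins bind, because this is a feature that the choice of genes did not use. RefSeq windows of 300 bases of the mouse assembly GRCm38.p6, from 250 bases before to 50 after an annotated start, were found for 41 of the 49 genes (49 windows, some genes having several starts). The E2F consensus was searched as TTTCCCGC, TTTCGCGC, TTTGCCGC and TTTGGCGC on both strands. At least 1 of these octamers was present in 15 of the 49 windows (30.6%), against 2.26% of all 32851 windows and 4.02% of the 11524 windows of genes above the floor. These 15 windows belonged to 15 genes, 36.6% of the 41. By role they were 8 of 13 licensing genes (Orc1, Orc3, Cdc6, Cdt1, Mcm3, Mcm5, Mcm6 and Mcm7), 4 of 7 polymerase genes (Pola1, Pold1, Pold3 and Pole2), and Gins3, Rfc3 and Lig1. In the windows of the 4 nucleotide supply genes none was found.

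Windows of 4 genes, chosen after their values were seen, are shown for contrast, with the E2F octamers in capitals: Mcm3 and Mcm6, which hold octamers and were higher on the Satb1-labelled array, Pold1, which holds an octamer and was the lowest of the polymerase genes by an _x_at probe set while its other probe set was slightly higher, and Tk1, which was the highest of all and has no octamer in its window. All 4 lie on the minus strand and are written 5′ to 3′ in the direction of transcription, so that the annotated start is the 251st base. They are chr1:20820263-20820562 for Mcm3, chr1:128359656-128359955 for Mcm6, chr7:44548766-44549065 for Pold1 and chr11:117825965-117826264 for Tk1.
Mcm3: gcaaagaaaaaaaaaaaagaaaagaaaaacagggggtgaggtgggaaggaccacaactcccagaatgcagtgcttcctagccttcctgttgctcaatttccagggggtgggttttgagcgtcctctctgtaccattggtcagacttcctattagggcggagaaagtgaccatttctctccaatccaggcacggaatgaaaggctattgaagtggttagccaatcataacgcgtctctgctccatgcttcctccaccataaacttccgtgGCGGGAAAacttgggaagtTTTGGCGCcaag
Mcm6: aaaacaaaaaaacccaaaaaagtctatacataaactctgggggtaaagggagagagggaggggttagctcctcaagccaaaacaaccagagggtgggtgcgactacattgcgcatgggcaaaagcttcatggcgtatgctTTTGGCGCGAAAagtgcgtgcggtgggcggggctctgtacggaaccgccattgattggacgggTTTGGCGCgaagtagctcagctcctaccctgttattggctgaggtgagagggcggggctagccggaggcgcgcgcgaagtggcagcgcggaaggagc
Pold1: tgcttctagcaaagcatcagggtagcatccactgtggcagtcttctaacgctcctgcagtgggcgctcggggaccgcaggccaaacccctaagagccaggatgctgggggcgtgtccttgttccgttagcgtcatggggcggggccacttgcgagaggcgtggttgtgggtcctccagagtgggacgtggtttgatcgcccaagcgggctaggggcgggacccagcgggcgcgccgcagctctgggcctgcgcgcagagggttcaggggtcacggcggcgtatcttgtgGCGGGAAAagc
Tk1: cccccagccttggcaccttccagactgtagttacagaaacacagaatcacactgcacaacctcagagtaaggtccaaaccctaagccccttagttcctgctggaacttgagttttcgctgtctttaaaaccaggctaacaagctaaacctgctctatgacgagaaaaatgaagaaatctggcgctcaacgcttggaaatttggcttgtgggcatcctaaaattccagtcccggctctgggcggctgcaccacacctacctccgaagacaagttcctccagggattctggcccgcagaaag
In the Mcm3 window both octamers lie just downstream of the annotated start, their first bases at 19 and 38 bases after it. In the Mcm6 window 2 octamers of opposite strands overlap about 110 bases before the start and another lies 47 bases before it. In the Pold1 window the only octamer lies 39 bases after the start. The letters are matches and were not shown to be bound in these cells.

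The genes were then divided by whether their window held an octamer. The 15 genes with one had a median log2 difference of 0.12, with 11 higher and 4 lower, in a range from -0.37 to 0.26. The 25 measured genes with a window but no octamer had a median of 0.02, with 16 higher and 9 lower, in a range from -0.56 to 0.29. The ranges overlap, and the difference between the medians was not tested. The split also rests on the probe set rule. Averaged over all probe sets per gene, Orc1 (-0.15), Orc3 (-0.03), Mcm5 (-0.06), Pold3 (-0.09) and Pole2 (-0.25), which hold an octamer, turned lower. No gene with an octamer turned higher. Among genes without an octamer, Orc2 (0.12), Mcm2 (0.04), Prim1 (0.11) and Rpa1 (0.01) turned higher and Dna2 (-0.06) lower. The higher median of the octamer genes thus holds only for the brightest probe sets.

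The CCAAT box, searched as CCAAT on both strands, was in 55.1% of the windows of the replication genes, against 37.4% of all windows and 37.7% of those of genes above the floor. The CHR element of genes active in G2 and mitosis, searched as TTTGAA on both strands, was in 10.2%, against 17.9% of all windows and 12.1% of those of genes above the floor. No word of 1 motif contains a word of another. For comparison, a list of 20 mitotic genes had windows for 17 of them, and there CHR was in 76.5%, CCAAT in 82.4% and an E2F octamer in 5.88%.

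**Figure D3:**
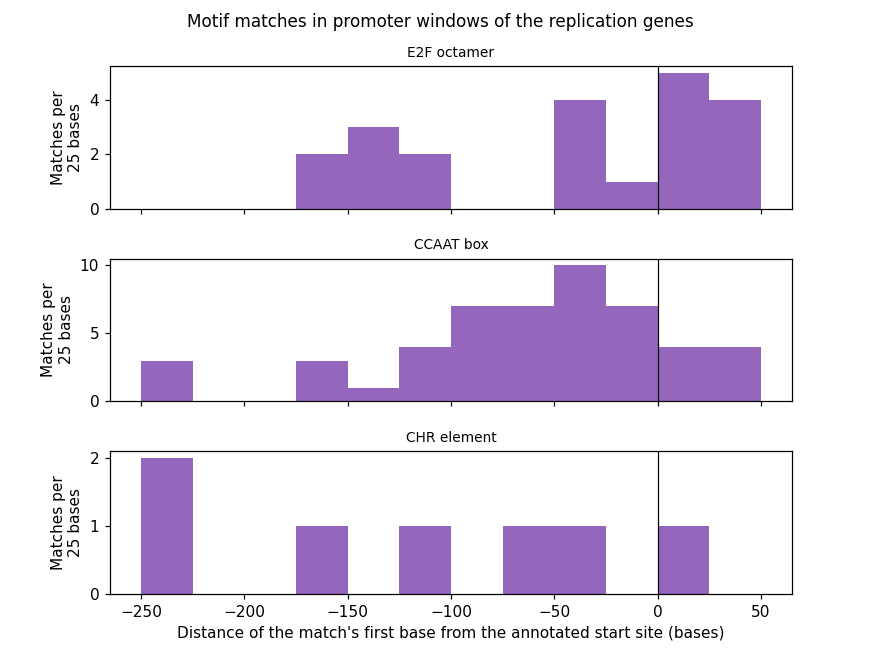
Number of motif matches per 25 bases, by distance of the match from the annotated start site in bases, in the 49 promoter windows of the replication genes, for the E2F octamers, the CCAAT box and the CHR element. The 21 E2F matches lie from 165 bases before to 39 after the start, 14 of them within 100 bases before to 50 after it, and so do 39 of the 50 CCAAT matches, while CHR has 7 matches in all.

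Origin licensing genes lay close together. Of 15, 11 were higher on the Satb1-labelled array and 4 lower, with differences from -0.05 to 0.22 and a median of 0.10, which was 0.06 after quantile normalization and 0.15 after centring. The ORC subunits were almost level by their brightest probe sets. Orc1, the ATP-binding subunit whose level follows the cell cycle, read 532 on the GFP-labelled array and 533 on the Satb1-labelled array. Orc2 read 1160 and 1145, and Orc3 read 1665 and 1671. These 3 core subunits differed by less than 0.02 on the log2 scale, and each had another probe set pointing the other way. Orc4 read 977 and 1059, a difference of 0.12, while its 3 other probe sets lay at -0.31, -0.07 and 0.69. The highest of these belonged to its dimmest probe set, at 84.1 and 135. Orc5 read 1223 and 1183. Orc6, the small subunit outside the conserved core, had the largest difference of the complex, at 2356 and 2709, 1.15-fold higher, by its only probe set.

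The proteins that load and restrain the helicase were bright. Cdc6, the ATPase that joins ORC, read 1752 on the GFP-labelled array and 1924 on the Satb1-labelled array, a difference of 0.14. Cdt1, its partner in loading, read 10381 and 10237, and its second probe set 3147 and 2982, so that both were slightly lower. Geminin (Gmnn), the inhibitor that binds Cdt1 and blocks a second round of licensing, read 5780 and 6187, a difference of 0.10. Cdt1 and geminin thus pointed in opposite directions by very small amounts, and after centring Cdt1 was higher too, by 0.03.

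In the MCM2-7 ring, 5 of the 6 subunit genes were higher on the Satb1-labelled array, with a median difference of 0.12. Mcm3 read 6839 and 7975, a 1.17-fold difference. Its next 3 probe sets were also higher, at 4074 and 5274, 2600 and 3002, and 672 and 883, and its dimmest was lower, at 268 and 196. Mcm4 read 7441 and 8200, and its second probe set 5792 and 8257, a difference of 0.51, the largest of any probe set over 1000 in the list. That probe set carries the suffix _x_at, given to probe sets that can also match transcripts of other genes. Mcm5 read 11237 and 12195, with its other probe sets at 2533 and 2567 and at 277 and 224. Mcm6 read 9263 and 10067, and a second probe set 7540 and 8750, both higher. Mcm3, Mcm4, Mcm5 and Mcm6 were thus each higher by their brightest probe sets, also after quantile normalization, while centring could only raise them. Mcm7 read 16806 and 17625, while its other 3 probe sets differed by -0.03, 0.02 and 0.12. Mcm2 was the exception, at 4091 and 4018, but its second probe set was higher, at 3001 and 3224, and Mcm2 was higher by 0.03 after centring. The brightest probe sets of Mcm2, Mcm3, Mcm5 and Mcm7 also carry the suffix _s_at or _x_at. Without such probe sets Mcm2 was at 0.10, Mcm3 at 0.21, Mcm5 at 0.02 and Mcm7 at -0.03. Averaged over its probe sets Mcm5 was at -0.06.

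Genes that turn the loaded ring into a working helicase had a median difference of 0.13, with 5 of 7 higher and 2 lower. Averaged over all probe sets per gene, the median was 0.02. Gins2, a subunit of the 4-subunit GINS complex, read 1174 on the GFP-labelled array and 1428 on the Satb1-labelled array, 1.22-fold higher, and its second probe set gave nearly the same difference, at 1127 and 1336. Gins1 read 2419 and 2809, but a dim second probe set read 190 and 126, a difference of -0.58. Gins4 read 1820 and 2012 by its only probe set. Gins3 was lower by both of its probe sets, at 488 and 468 and at 246 and 242. The 4 GINS genes thus did not move as one.

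Cdc45, the protein that GINS joins on the ring, was lower by both of its probe sets, at 1141 and 963 and at 154 and 101, differences of -0.24 and -0.61. It was lower under all 3 scalings and by the mean over probe sets. Mcm10, which helps activate the helicase, read 1354 and 1484, with its 2 other probe sets below the floor. Ticrr (treslin), which helps bring Cdc45 to origins, read 895 and 965, a difference of 0.11, and its second probe set read 135 and 133.

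Polymerase and primase genes were divided, with 5 of 9 higher, 4 lower and a median difference of 0.09. Averaged over all probe sets per gene, this median turned to -0.02. In the polymerase alpha and primase complex, the catalytic subunit gene Pola1 read 2472 on the GFP-labelled array and 2786 on the Satb1-labelled array, and the accessory subunit gene Pola2 read 1664 and 1592. The large primase subunit gene Prim2 read 1625 and 1943, a difference of 0.26, and its second probe set was also higher, at 1416 and 1559. The catalytic primase subunit gene Prim1 read 5051 and 4840 by its brightest probe set but 3575 and 4334 by the other. By the brightest probe sets the complex thus held 2 higher and 2 lower genes, but Prim1 was at 0.11 averaged over its probe sets.

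Pold1, the catalytic subunit of polymerase delta, had the largest negative difference in this group, at 3539 and 2747, 1.29-fold lower. This value comes from an _x_at probe set, and the other Pold1 probe set read 1578 and 1655, slightly higher. Pold2 read 2511 and 2664 by its only probe set. Pold3 was 1.19-fold higher by an _x_at probe set, at 2543 and 3016, while its 2 other probe sets were lower, at 1741 and 1516 and at 491 and 396. When _x_at and _s_at probe sets were left out, the difference of Pold1 turned from -0.37 to 0.07 and that of Pold3 from 0.25 to -0.20. For both genes the direction thus rests on the choice of probe set. The catalytic subunit gene of polymerase epsilon, Pole, read 2369 and 2104 by its only probe set, a difference of -0.17 that kept its sign under all 3 scalings. Its partner Pole2 read 2245 and 2463, and a second probe set, under the floor on the Satb1-labelled array, read 95.6 and 56.4. Averaged over both, the difference of Pole2 turned from 0.13 to -0.25.

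The clamp, its loader and the single-strand binding protein RPA had 7 of 9 genes higher and 2 lower, with a median difference of 0.08. Pcna, the sliding clamp, read 18591 and 18656, a difference of 0.005. Of the 5 clamp loader genes 4 were higher. Rfc3 had the largest difference, at 1127 and 1353, a difference of 0.26, and its second probe set was higher as well, at 1069 and 1189. Rfc4 read 2660 and 3018, with its other probe set at 2160 and 2270. Rfc5 read 4628 and 5044. These 3 small subunits of the loader were thus higher by every probe set. Rfc1, the large subunit, read 2250 and 2285 by its brightest probe set, while a dim one read 192 and 305, a difference of 0.67. Rfc2 was the lower one, at 5204 and 4764, by 2 of its 3 probe sets. The RPA subunits were nearly level: the large subunit gene Rpa1 read 9633 and 9475, Rpa2 2914 and 3073, and Rpa3 3990 and 4296.

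Genes that finish the lagging strand were nearly level by their brightest probe sets. The flap endonuclease gene Fen1 read 4968 on the GFP-labelled array and 5015 on the Satb1-labelled array, and the DNA ligase gene Lig1 3709 and 3601. The nuclease-helicase gene Dna2 read 3117 and 3158, but its dimmer probe sets lay at 614 and 439 and at 170 and 209. The median of the 3 was 0.01, and it was -0.01 after quantile normalization. Chaf1b, the measured subunit of the chromatin assembly factor that places histones behind the fork, read 1230 and 1083, a difference of -0.18 that stayed negative under all 3 scalings.

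Nucleotide supply held both ends of the range. Tk1, the thymidine kinase that salvages thymidine in S phase, read 2988 on the GFP-labelled array and 3664 on the Satb1-labelled array, the highest difference of the 48 genes at 0.29, by its only probe set. The ribonucleotide reductase genes, whose enzyme makes deoxynucleotides, were both higher. Rrm2, the subunit that limits the enzyme outside S phase, read 8276 and 9372, and its other probe sets read 4414 and 5321 and 2037 and 2072. Rrm1 read 6846 and 7085. Tyms, the thymidylate synthase gene, had the lowest difference, -0.56, at 412 and 279.

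The probe sets of Tyms disagreed. Its second probe set above the floor pointed the other way, at 104 and 137, and its 2 others were below the floor on both arrays. A further probe set, left out by the rule because it names both Tyms and the pseudogene Tyms-ps, read 2813 and 2932, a difference of 0.06. With the mean over the Tyms probe sets the difference was -0.04. Without Tyms the nucleotide supply genes were all higher, at 0.05, 0.18 and 0.29, although Rrm1, the 0.05, was at -0.02 after quantile normalization.

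By role, the median differences were 0.10 for licensing, 0.09 for polymerases and 0.11 for nucleotide supply. These medians, and those of helicase activation and the clamp group, stayed above 0 after quantile normalization, while centring could only raise them. The 3 lay within 0.03 of each other, and the ranges of the 3 groups overlapped. Averaged over all probe sets per gene they were 0.10, -0.02 and 0.11, so that the polymerase median no longer lay beside the other two.

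**Figure D4:**
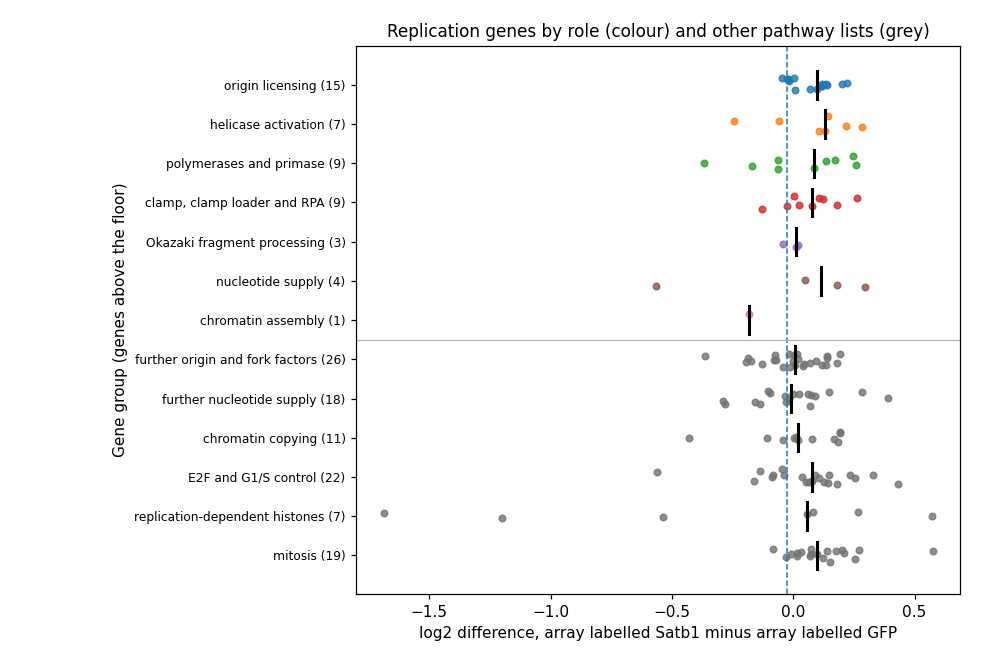
The log2 difference between the arrays for each gene of the 7 role groups (coloured points) and of 6 other lists (grey points), with the number of genes above the floor in brackets; the black bar is the group's median and the dashed line the median of all genes above the floor. The role medians run from -0.18 for chromatin assembly, which is Chaf1b alone, to 0.13 for helicase activation, and the histone list spreads furthest, from -1.69 to 0.57.

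Other genes of the pathway, in lists that were not part of the 49, were read the same way. Of 26 further origin and fork factors, 14 were higher and 12 lower, with a median of 0.01 and 0 genes 1.5-fold apart. The fork protection gene Timeless was the furthest of them, at 2680 and 2081, although its other probe set was higher by 0.51. Wdhd1, which ties polymerase alpha to the helicase, read 2461 and 2149, and the ribonuclease H2 subunit gene Rnaseh2c 3705 and 4235. Of 18 measured further nucleotide genes, 8 were higher and 10 lower, with a median of -0.01, or 0.04 after centring. Cad, which starts pyrimidine synthesis, read 1742 and 2283, the nucleoside diphosphate kinase gene Nme1 10527 and 8619, and Dhodh, a later enzyme of pyrimidine synthesis, 994 and 817. Of 11 measured genes that copy chromatin, 8 were higher and 3 lower, with a median of 0.02. Tonsl, which reads new histones behind the fork, read 664 and 493, the methylation maintenance gene Uhrf1 5495 and 6285, and the histone acetyltransferase gene Hat1 3211 and 3671. After quantile normalization the medians of the fork and chromatin lists were both -0.01.

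The E2F and G1/S control list had a median difference of 0.08, with 15 of 22 genes higher, 7 lower and 0 genes 1.5-fold apart. Cdc25a, the phosphatase that activates Cdk2, read 1732 and 2338, and Rb1, the retinoblastoma gene that restrains E2F, read 1525 and 1917. The furthest was E2f4, a repressive E2F, at 115 and 78.2 by a dim probe set. The mitotic list had a median of 0.10, with 16 of 19 genes higher, 3 lower and 0 genes 1.5-fold apart. Its furthest genes were Ndc80, an outer kinetochore gene, at 616 and 918, Kif20a at 1616 and 1948 and Aurka at 1862 and 2221. The mitotic and G1/S lists thus leaned the same way as the replication genes, also after quantile normalization, while centring could only raise their medians. No difference between these lists could be tested with 1 array per group.

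Histone genes, whose products package the copied DNA, held the widest differences of these pathway lists. Of 13 measured genes whose symbols start as those of the clustered histones do, 7 were above the floor, and 2 of these were 2-fold or more lower on the Satb1-labelled array, against 0.860% of all genes above the floor. H3c4 read 467 on the GFP-labelled array and 145 on the Satb1-labelled array, a 3.22-fold difference, and H3c7 504 and 219, a 2.30-fold difference. The linker histone gene H1f2 went the other way, at 1745 and 2595, and its second probe set above the floor differed by 0.62. Both histone H3 values come from a single probe set each, and a floor at the 75th percentile shrank their differences to -0.08 and -0.19.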

How the data were processed

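Total RNA of 2 samples was labelled with biotin and hybridised to 1 Affymetrix array each. The deposited intensities are MAS5 signals on a linear scale, made by the authors, per the submitters' processing notes; their version and scaling target are not stated there. Of 45037 probe sets, 34945 had 1 gene symbol in the platform annotation, 932 several and 9160 none. Symbols were updated through Entrez gene IDs against the RefSeq table of GRCm38.p6, which matched 34741.

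Intensities under 61.7, the 50th percentile of all values, were set to that floor, log2 was taken with no further normalization, and the brightest probe set stood for a gene. The scripts ran in Python 3.11.15 with pandas 2.3.3 and numpy 2.4.6 and were tested on simulated data. Promoter windows came from RefSeq. The precision is limited by the number of arrays, and with 1 array per group there was no test.

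The genes and lists were chosen with earlier results of these data known. Genes named are the listed ones, with values in full for the 5 highest and 5 lowest differences, the 2 furthest per role and those whose probe sets disagree, and up to 3 genes of each other list. Alternatives were the floor, the normalization and the probe set rule. Some genes of the lists are not reported here.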

Additional observations from a re-analysis of the deposited data

How the results depend on the processing

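No paired analysis was possible because each group had 1 array, and no array could be left out. Under all 7 alternatives (3 other floors, counting none, quantile normalization, centring, and 2 other probe set rules), 0 replication genes were 2-fold or 1.5-fold apart. Their median log2 difference ran from 0.04 to 0.13, and the count of genes higher by any amount from 28 to 39. The count at 1.2-fold, 5 as reported, ran from 4 to 9, the 9 being after centring. The role medians kept their sign for licensing, helicase activation, the clamp group, nucleotide supply and Chaf1b. The polymerase median was -0.02 with the mean over probe sets, and the Okazaki median -0.04 with that mean and -0.01 after quantile normalization. Single genes that moved by over 0.26 on the log2 scale with the mean over probe sets were Gins1 (-0.18), Pold3 (-0.09), Pole2 (-0.25), Tyms (-0.04) and Timeless (0.07). Without _s_at and _x_at probe sets they were Pold1 (0.07), Pold3 (-0.20), Cad (0.06) and Nme1 (0.02), and under a floor at the 75th percentile Tyms (0), E2f4 (0), H3c4 (-0.08) and H3c7 (-0.19), since a higher floor removes differences of dim probe sets. Signal over background limits Tyms most among the replication genes, the dimmest of them at 412 and 279.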
